A study of Homo sapiens with 12 samples.

Results

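The nuclear pore complex is the protein assembly through which molecules pass between nucleus and cytoplasm, and its subunits are called nucleoporins. The 32 nucleoporin genes described here were taken by gene symbol from both deposited tables, 32 of 20029 genes in the selinexor table and 32 of 19610 in the knockdown table. They fall into 6 groups by their place in the pore: 7 genes of the cytoplasmic face, 9 of the outer ring, 5 of the inner ring, 4 of the central channel, 3 of the nuclear basket and 4 of the pore membrane. All 32 passed the minimum mean of 10 normalized counts in both tables.

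The pore is built from stacked rings held in the nuclear envelope by membrane nucleoporins. Its channel is filled with flexible repeats of phenylalanine and glycine, and transport receptors bind these repeats to carry cargo across. XPO1 is the main receptor for protein export: it leaves the nucleus with its cargo and Ran bound to GTP and is released at the cytoplasmic face, where NUP214 and RANBP2 bind it. In dividing cells the envelope and most pores come apart at mitosis and are built again afterwards.

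The cells were IMR5, a human neuroblastoma line in long use that carries extra copies of the oncogene MYCN. Selinexor, a small molecule that binds and blocks XPO1, was given at 100 nM for 24 h and set against cells in medium with DMSO, whose time the labels do not state. XPO1 siRNA, the siRNA numbered 10 of an ON-TARGETplus set, was nucleofected and set against nucleofected control siRNA, and RNA of both was taken at 72 h. Each of the 4 groups had 3 libraries of the same line, and all were made from total RNA with a kit that keeps strand. The 2 comparisons differ in agent, delivery and time, and the knockdown rests on a single siRNA. Nothing in the labels ties replicates to separate cultures, so a p-value here weighs a change against the spread of these libraries only, and that spread may be technical.

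Estimated depth was 26.8 to 33.8 M reads per selinexor library and 39.5 to 40.9 M per DMSO library, while the XPO1 siRNA libraries had 33.5 to 55.8 M and those with control siRNA 40.6 to 54 M. XPO1 itself, the targeted gene (hg19 chr2:61704984-61765762), averaged 4344 ± 74 normalized counts with XPO1 siRNA and 18809 ± 209.8 with control siRNA (SD, n = 3 each), and it was 4.33-fold lower (log2 fold change -2.11, SE 0.0311, limma adjusted p = 2.91e-14). With selinexor XPO1 had 15544, 22513 and 21165 normalized counts, against 17886, 18899 and 18356 with DMSO, and the groups overlapped (log2 fold change 0.09, SE 0.135, limma adjusted p = 0.623). Without selinexor replicate 1 the value was 0.25 (limma adjusted p = 0.00112). Selinexor replicate 1 stood apart, with log2 correlations of 0.974 and 0.977 to the other 2 selinexor libraries, which correlated at 0.991. Summed neuroblastoma markers were 79537 to 88835 with selinexor and 67932 to 70253 with DMSO, and 92229 to 98115 with XPO1 siRNA and 77249 to 79391 with control siRNA. No epithelial marker and 1 of 4 leukocyte markers had a row in the tables used here. Endothelial markers had 2 of 4, and Schwann and glial markers 3 of 4. Fibroblast markers had 4 of 5 in the selinexor table and 3 of 5 in the knockdown table. Summed fibroblast markers were 637 to 1645 with selinexor and 691 to 795 with DMSO. They were 866 to 893 with XPO1 siRNA and 1021 to 1252 with control siRNA. The neuroblastoma marker TH had no row in the selinexor table and was below the minimum mean in the knockdown table.

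Values are the authors' normalized counts, gene counts divided by a size factor for each library. Fold changes are differences of mean log2(normalized count + 1), the group under test minus its control, and a gene was called when its limma p-value, Benjamini-Hochberg adjusted over all genes of the table, was under 0.05. These are bulk samples, so fewer cells with a transcript and less of it in each cell cannot be told apart.

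With selinexor most of the pore's genes fell. Of the 32 nucleoporin genes, 27 were lower, against 26.3% of all genes tested, and 2 were higher, against 22.9%. Their median log2 fold change was -0.81, while the median over all 18128 genes tested was -0.01. The falls of 10 members were 1 or more on the log2 scale, as were those of 5.53% of all genes. The 3 selinexor libraries lay below all 3 DMSO libraries for 29 members and 32.9% of all genes. The members' summed counts were 0.32%, 0.335% and 0.352% of the table total with selinexor, against 0.504%, 0.503% and 0.511% with DMSO. Selinexor replicate 1 was the lowest of its group for 22 members, as DMSO replicate 1 was for 21 and control siRNA replicate 1 for 19. Without selinexor replicate 1, 29 members were lower and 2 higher, with a median of -0.75. That fit called more of all genes too, 6065 of 17917 lower and 5048 higher, against 4774 of 18128 lower and 4146 higher with all libraries.

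XPO1 knockdown moved most of the same members in the same direction by less. Of the 32, 23 were lower, against 28.6% of all genes tested, and 3 were higher, against 25.9%. The median log2 fold change was -0.23, and that over all 17616 genes tested was 0.00. All 3 XPO1 siRNA libraries lay below the control siRNA libraries for 23 members and 31.2% of all genes. Summed, the members took 0.397%, 0.4% and 0.404% of the table total with XPO1 siRNA, against 0.409%, 0.413% and 0.421% with control siRNA. These small changes depend on the scaling: with libraries set to equal totals, 18 members were lower and 4 higher with a median of -0.14, and 62.4% of all called genes were higher in place of 47.5%.

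The 23 members lower with knockdown were all lower with selinexor too, so that 23 of 32 were lower in both comparisons, against 18.3% of genes tested in both. They included all 18 members of the outer ring, inner ring and central channel. The fold changes had the same sign in both comparisons for 29 of 32 members and for 12561 of 17332 genes. A test of the difference between the 2 effects, made over all 12 libraries, called 26 members as more negative with selinexor, against 20.2% of all genes, and 0 as more positive, against 11.6%. POM121C alone was more positive at an unadjusted p under 0.05. The median difference was -0.55 for the members and -0.07 for all genes.

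**Figure D1:**
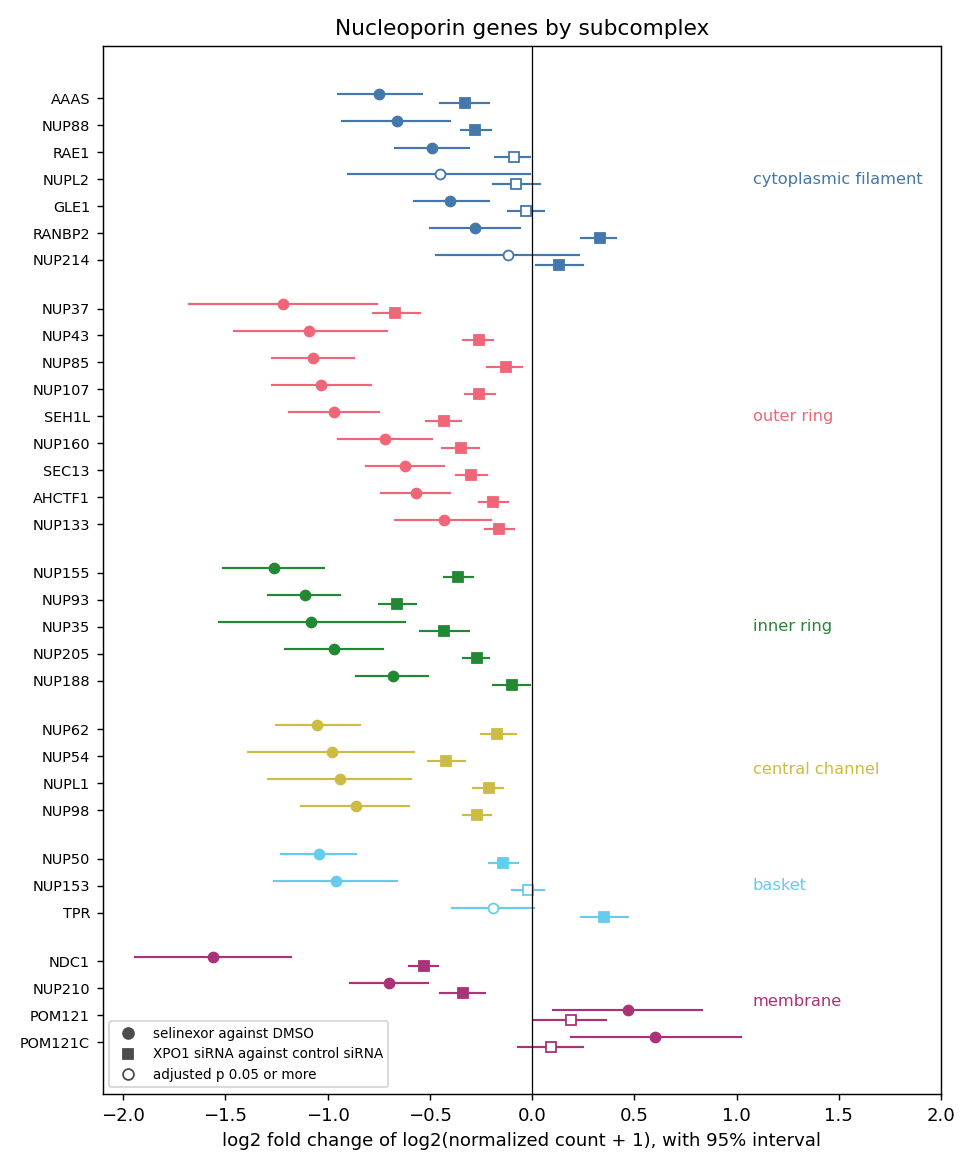
Log2 fold changes of the 32 nucleoporin genes (x axis) with 95% intervals, grouped by place in the pore, for selinexor against DMSO (circles) and XPO1 siRNA against control siRNA (squares), with open symbols where the adjusted p was 0.05 or more. Selinexor values of the outer ring, inner ring and central channel lie between -1.26 and -0.43, while POM121 and POM121C lie above 0.

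**Figure D2:**
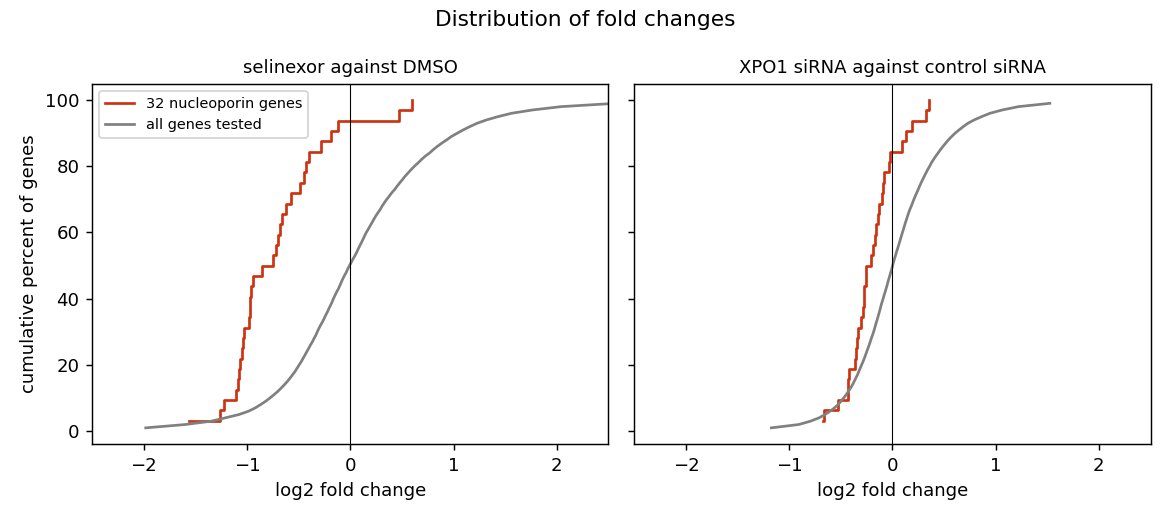
Cumulative percent of genes (y axis) against log2 fold change (x axis) for the 32 nucleoporin genes (red) and all genes tested (grey) in each comparison. Over most of its range the members' curve lies left of that of all genes, with medians of -0.81 against -0.01 for selinexor and -0.23 against 0.00 for XPO1 siRNA.

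The start regions of the genes were examined because so many members moved together. RefSeq start regions (GRCh38.p14) were found for 29 of the 32, and the 250 bases before each start were searched on both strands for the E-box CACGTG, bound by MYC proteins, for the E2F words TTTCCCGC, TTTGGCGC, TTTCGCGC and TTTGCCGC, for the CCAAT box and for the cell cycle homology region TTTGAA, an element of genes whose transcription follows the cell cycle. No word contains another. The E-box was present in 2 members, 6.9%, in 6.49% of all 27305 start regions and in 9.06% of those of tested genes. CCAAT was present in 10 members, 34.5%, in 33% of all and in 34.8% of those of tested genes. TTTGAA was present in 6 members, 20.7%, against 13.6% of all and 8.29% of those of tested genes. An E2F word was in 0 members, 2.79% of all and 4.25% of those of tested genes. Those with TTTGAA were NUP37, NUP205, NUP35, NUP98, NUP153 and NDC1. NUP155, NUP93, NUP85, NUP62, NUP50 and NUP107 lacked it, with selinexor falls of 1 or more on the log2 scale. The relation of the word to the falls was not tested. A match is a stretch of letters and was not tested as a site. The 250 bases before the starts of NDC1 (chr1:53838297-53838546 on the minus strand), NUP37 (chr12:102120115-102120364 on the minus strand) and NUP35 (chr2:183124193-183124442 on the plus strand) are shown as members with large falls and the word TTTGAA, and that of RANBP2 (chr2:108719232-108719481 on the plus strand) as a member with opposite calls in the 2 comparisons and none of the words. Each is written 5′ to 3′ on the gene's strand, and capitals mark TTTGAA or CCAAT, or TTCAAA or ATTGG where the word is on the other strand.
NDC1: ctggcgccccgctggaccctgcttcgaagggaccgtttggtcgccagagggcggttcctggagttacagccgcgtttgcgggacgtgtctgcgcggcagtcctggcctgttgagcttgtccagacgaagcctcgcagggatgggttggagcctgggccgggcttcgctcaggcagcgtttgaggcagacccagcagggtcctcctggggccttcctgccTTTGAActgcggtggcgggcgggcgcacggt
NUP37: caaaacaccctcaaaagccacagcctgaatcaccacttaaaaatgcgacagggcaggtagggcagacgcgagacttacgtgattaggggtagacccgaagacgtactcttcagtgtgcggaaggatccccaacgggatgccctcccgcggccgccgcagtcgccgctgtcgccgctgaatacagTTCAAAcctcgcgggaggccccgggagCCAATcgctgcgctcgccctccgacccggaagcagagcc
NUP35: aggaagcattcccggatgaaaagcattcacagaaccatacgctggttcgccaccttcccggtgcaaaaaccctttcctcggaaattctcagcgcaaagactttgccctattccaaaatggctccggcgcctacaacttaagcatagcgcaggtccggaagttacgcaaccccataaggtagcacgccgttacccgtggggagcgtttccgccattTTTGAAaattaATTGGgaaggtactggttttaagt
RANBP2: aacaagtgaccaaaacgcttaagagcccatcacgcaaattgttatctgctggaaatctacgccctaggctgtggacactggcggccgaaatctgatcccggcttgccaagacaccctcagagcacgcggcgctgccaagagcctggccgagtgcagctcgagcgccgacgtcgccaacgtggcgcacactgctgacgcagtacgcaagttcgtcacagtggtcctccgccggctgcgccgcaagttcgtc
In these regions TTTGAA began 31 bases before the start of NDC1, 66 before that of NUP37 and 35 before that of NUP35. In regions not shown it began 131 bases before the start of NUP98, 165 before that of NUP205 and 241 before that of NUP153.

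The outer ring is built from Y-shaped complexes that coat both faces of the pore and start its assembly. All 9 of its genes were lower in both comparisons, with medians of -0.97 with selinexor and -0.26 with knockdown. NUP37 (hg19 chr12:102467967-102513903), a small subunit of the Y, had 236, 419.6 and 385 normalized counts with selinexor, against 825, 819.8 and 715 with DMSO. With XPO1 siRNA it had 614, 598 and 629, against 939, 972 and 1015 with control siRNA. The groups did not overlap in either table, and NUP37 had the largest knockdown fall of the 32. Its log2 fold changes were -1.22 (SE 0.201, limma adjusted p = 0.00143) and -0.67 (SE 0.0535, limma adjusted p = 2.34e-07), and their difference of -0.55 did not pass (limma adjusted p = 0.0787). That difference passed without selinexor replicate 1 (-0.30, limma adjusted p = 0.0176) or 2 (-0.71, limma adjusted p = 0.0167).

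NUP85 (chr17:73201754-73231854), in a short arm of the Y, read 1943, 2057 and 1757 with selinexor, against 3810, 4176 and 4066 with DMSO. With XPO1 siRNA it read 3816, 3732 and 3628, against 4091, 3917 and 4250 with control siRNA. The selinexor libraries were far below DMSO, while the XPO1 siRNA libraries were below control siRNA by a small margin. The log2 fold changes were -1.07 (SE 0.0885) and -0.13 (SE 0.0392), and the difference of -0.94 passed (limma adjusted p = 1.16e-05). The knockdown value of NUP85 was -0.04 (limma adjusted p = 0.335) with libraries at equal totals, which ends its call, as does leaving out control siRNA replicate 3 or XPO1 siRNA replicate 3.

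NUP107 (chr12:69080514-69136786), in the stem of the Y, had 1870, 2445 and 2150 normalized counts with selinexor, against 4271, 4420 and 4413 with DMSO. With XPO1 siRNA NUP107 had 3717, 3617 and 3635, against 4254, 4427 and 4422 with control siRNA. Neither pair of groups overlapped, and NUP107 had log2 fold changes of -1.03 and -0.26 (limma adjusted p = 0.000115 and 2.94e-05). NUP43 (chr6:150045451-150070802), a subunit of the short arm, had 2357, 3712 and 3544 with selinexor, against 6364, 7022 and 6630 with DMSO. Selinexor replicate 1 was the lowest, and the log2 fold change of NUP43 was -1.09 (SE 0.162), or -0.88 without that library. With XPO1 siRNA NUP43 had 5885, 5739 and 5795, against 6739, 6948 and 7200 with control siRNA, and the groups were apart (log2 fold change -0.26).

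SEH1L (chr18:12947132-12987536), which sits with NUP85, had 1846, 2281 and 2193 normalized counts with selinexor, against 4065, 4209 and 4088 with DMSO. With XPO1 siRNA SEH1L had 3592, 3435 and 3364, against 4815, 4632 and 4598 with control siRNA. Neither pair of groups overlapped. Its log2 fold change of -0.43 with knockdown was among the 6 largest there, beside -0.97 with selinexor. The other outer ring genes had smaller falls with selinexor. NUP160, at a branch of the Y, had a log2 fold change of -0.72, SEC13, which also serves in the coat of transport vesicles, -0.62, AHCTF1, which brings the ring to chromatin after mitosis, -0.57, and NUP133, at the foot of the stem, -0.43. With knockdown the same 4 genes gave -0.35, -0.30, -0.19 and -0.16, and all 4 were called in both comparisons. The knockdown call of NUP133 was lost with libraries at equal totals (-0.07, limma adjusted p = 0.0881). Its difference of effects did not pass (-0.27, limma adjusted p = 0.0735).

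The inner ring joins the outer rings to the channel and the membrane. All 5 of its genes were lower in both comparisons, and its median with selinexor, -1.08, was the most negative of the 6 groups. NUP155 (chr5:37288239-37371284), which anchors the ring to the membrane, had 3808, 4672 and 5045 normalized counts with selinexor, against 10606, 10776 and 10887 with DMSO. With XPO1 siRNA NUP155 had 7847, 7990 and 8017, against 10025, 10149 and 10438 with control siRNA. All treated libraries were below all of their controls, and NUP155 had log2 fold changes of -1.26 (SE 0.109) with selinexor and -0.36 (SE 0.0316) with knockdown. The difference was -0.90 (limma adjusted p = 8.12e-05).

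NUP93 (chr16:56764017-56878798), the scaffold of the inner ring, read 1870, 1976 and 1891 with selinexor, against 4012, 4261 and 4156 with DMSO. With XPO1 siRNA NUP93 read 3140, 3068 and 3049, against 5018, 4601 and 5012 with control siRNA. The 3 libraries of each treated group lay close together and well below their controls. NUP93 had the smallest selinexor p of the inner ring (log2 fold change -1.11, SE 0.0747, limma adjusted p = 1.15e-05) and was lower with knockdown as well (-0.66, SE 0.0403).

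NUP35 (chr2:183982241-184026409), which binds membrane and NUP155, had 334, 573 and 578 normalized counts with selinexor, against 1037, 988 and 1014 with DMSO. With XPO1 siRNA NUP35 had 745, 751 and 789, against 963, 1078 and 1048 with control siRNA. The groups were apart in both tables, and selinexor replicate 1 was the lowest library. The log2 fold changes of NUP35 were -1.08 and -0.43. Without selinexor replicate 1 the selinexor value was -0.81.

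NUP205 and NUP188 are large, related scaffold proteins of the inner ring. NUP205 (chr7:135242667-135333506) had 5116, 6660 and 6251 normalized counts with selinexor, against 11485, 11811 and 11889 with DMSO. With XPO1 siRNA NUP205 had 10898, 11041 and 10834, against 13084, 13208 and 13344 with control siRNA. Its groups were apart in both tables. NUP188 (chr9:131709978-131769376) had 3845, 3586 and 3615 with selinexor, against 5711, 6047 and 5998 with DMSO. With XPO1 siRNA NUP188 had 4623, 4565 and 4727, against 5050, 4689 and 5212 with control siRNA. The selinexor libraries of NUP188 were all below DMSO (log2 fold change -0.68). Its siRNA groups overlapped, and the knockdown call of NUP188 (log2 fold change -0.10, limma adjusted p = 0.0485) was lost in 9 of the alternative settings, among them those without control siRNA replicate 1 or 3 or any XPO1 siRNA replicate. NUP205 had log2 fold changes of -0.97 and -0.27, and the difference between the comparisons passed for both genes (-0.70 for NUP205 and -0.58 for NUP188).

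The central channel holds the repeat proteins that transport receptors touch. All 4 of its genes were lower in both comparisons, in a narrow range of -1.05 to -0.86 with selinexor and -0.42 to -0.17 with knockdown. NUP62 (chr19:50410082-50433021), the core of the channel, had 3435, 3150 and 2884 normalized counts with selinexor, against 6247, 6749 and 6513 with DMSO. With XPO1 siRNA NUP62 had 5920, 5682 and 5578, against 6436, 6133 and 6724 with control siRNA. Neither pair of groups overlapped. Here selinexor replicate 1 was the highest of its group, and the log2 fold change of -1.05 became -1.11 without it. The difference of effects for NUP62 was -0.88 (limma adjusted p = 2.31e-05), and its knockdown call (-0.17) was lost with libraries at equal totals (-0.08, limma adjusted p = 0.0888).

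NUP54 (chr4:77035812-77069669), bound to NUP62 in the channel, had 964, 1643 and 1445 with selinexor, against 2494, 2678 and 2639 with DMSO. With XPO1 siRNA NUP54 had 2098, 2046 and 2150, against 2688, 2919 and 2795 with control siRNA. The groups were apart in both tables, with log2 fold changes of -0.98 and -0.42. NUPL1, the other partner of NUP62, had -0.94 and -0.21. NUP98, whose gene also encodes the outer ring protein NUP96, had -0.86 and -0.27, so its value covers RNA of both products.

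The nuclear basket reaches into the nucleus and receives cargo and messenger RNA. Its 3 genes did not move alike. NUP50 (chr22:45559722-45583897), which helps release import cargo, had 2926, 3358 and 3219 normalized counts with selinexor, against 6466, 6615 and 6435 with DMSO. With XPO1 siRNA NUP50 had 4615, 4511 and 4499, against 4949, 5009 and 5082 with control siRNA. NUP50 was lower in both, with log2 fold changes of -1.04 (SE 0.0809) and -0.14 (SE 0.0328), and its difference of -0.90 had the smallest p of all members (limma adjusted p = 4.06e-06). Its knockdown call was lost with libraries at equal totals (-0.05, limma adjusted p = 0.162).

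NUP153 (chr6:17615269-17706657), which anchors the basket, read 1440, 2008 and 2010 with selinexor, against 3570, 3462 and 3463 with DMSO. With XPO1 siRNA NUP153 read 3034, 2987 and 2932, against 2933, 3059 and 3096 with control siRNA. The selinexor libraries were all below DMSO, while the siRNA groups overlapped. NUP153 fell by 0.96 (SE 0.132) with selinexor and had -0.02 (SE 0.0372, 95% interval -0.10 to 0.06, limma adjusted p = 0.65) with knockdown, and the difference of -0.94 passed (limma adjusted p = 0.000338).

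TPR (chr1:186280784-186344826), the long coiled filament of the basket, had 17359, 20140 and 19636 normalized counts with selinexor, against 21244, 21113 and 22814 with DMSO. With XPO1 siRNA TPR had 20435, 20723 and 19934, against 14509, 15936 and 17513 with control siRNA. It lay below its control in every selinexor library and above its control in every XPO1 siRNA library. The selinexor value of -0.19 (SE 0.0878, limma adjusted p = 0.101) did not pass, the knockdown value of 0.35 (SE 0.0528, limma adjusted p = 7.3e-05) did, and the difference of -0.55 passed as well (limma adjusted p = 0.002).

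The cytoplasmic face holds the filaments on which export complexes come apart. With selinexor 5 of its 7 genes were lower, and with knockdown 2 were lower and 2 higher, with medians of -0.45 and -0.08. All genes tested gave 26.3% lower with selinexor, and 28.6% lower and 25.9% higher with knockdown, so the knockdown counts of this group were near those of all genes. AAAS (chr12:53701240-53718649), which binds the membrane protein NDC1, had 836, 861 and 775 normalized counts with selinexor, against 1304, 1458 and 1387 with DMSO. With XPO1 siRNA AAAS had 1336, 1197 and 1258, against 1624, 1484 and 1656 with control siRNA. It was below its control in all 6 treated libraries, with log2 fold changes of -0.75 and -0.33, the most negative of this group in each comparison.

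RANBP2 (chr2:109335937-109402268), the large filament protein that binds Ran and attaches SUMO, was the sole member called in opposite directions. It had 13408, 16073 and 16506 normalized counts with selinexor, against 18644, 18280 and 18704 with DMSO. With XPO1 siRNA RANBP2 had 18386, 18671 and 18928, against 14128, 14906 and 15674 with control siRNA. Both pairs of groups were apart, in opposite directions. The knockdown rise was 0.33 (SE 0.0382, limma adjusted p = 8.31e-06), and the difference of -0.61 passed (limma adjusted p = 0.000788). The selinexor fall of 0.28 (limma adjusted p = 0.0393) was less secure, at -0.20 (limma adjusted p = 0.0636) with equal totals and -0.08 (limma adjusted p = 0.253) once the GC content trend of each library was removed. It was also lost with a replicate block (limma adjusted p = 0.0527) and with no intensity trend (limma adjusted p = 0.0776). The same held without any 1 of the DMSO libraries (limma adjusted p = 0.108 to 0.127).

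NUP214 (chr9:134000948-134110058), the repeat protein of the cytoplasmic face that binds XPO1, had 2004, 1264 and 1560 normalized counts with selinexor, against 1751, 1667 and 1737 with DMSO. With XPO1 siRNA NUP214 had 1610, 1784 and 1819, against 1595, 1511 and 1637 with control siRNA. Selinexor replicate 1 was above every DMSO library and the other 2 were below, and the siRNA groups overlapped. The selinexor value was -0.12 (SE 0.152, limma adjusted p = 0.537), or -0.29 (limma adjusted p = 0.00431) without selinexor replicate 1. The knockdown rise of 0.13 (limma adjusted p = 0.0433) was lost in 5 of the alternative settings, among them those without control siRNA replicate 1 or 2 or XPO1 siRNA replicate 2 or 3.

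Of the remaining genes of the cytoplasmic face, NUP88, the partner of NUP214, had log2 fold changes of -0.66 with selinexor and -0.28 with knockdown, both called. GLE1, which activates the helicase that strips proteins from exported messenger RNA, had -0.40 and -0.03, and RAE1, an export factor bound to NUP98, had -0.49 and -0.09. For both only the selinexor value was called, and for both the difference passed (-0.37 and -0.40). The knockdown value of RAE1 (limma adjusted p = 0.0512) passed without control siRNA replicate 1 (-0.11, limma adjusted p = 0.0471). NUPL2, a repeat protein that binds GLE1, had -0.45 (limma adjusted p = 0.0849) and -0.08, and neither was called. Its selinexor libraries read 584, 1027 and 950.4, against 1080, 1228 and 1107 with DMSO. All 3 lay below DMSO, and the value passed without selinexor replicate 1 (-0.20, limma adjusted p = 0.0203) or 2 (-0.61, limma adjusted p = 0.0343).

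The pore membrane group held both the largest fall and the 2 rises with selinexor. NDC1 (chr1:54231133-54304534), a membrane protein needed for pore assembly, had 2645, 4284 and 4007 normalized counts with selinexor, against 10243, 10679 and 10593 with DMSO. With XPO1 siRNA NDC1 had 7943, 7913 and 7816, against 11015, 11792 and 11350 with control siRNA. All treated libraries were far below their controls. NDC1 was 2.94-fold lower with selinexor (log2 fold change -1.56, SE 0.166, limma adjusted p = 0.000142) and 1.44-fold lower with knockdown (-0.53, SE 0.0337, limma adjusted p = 2.64e-08). The difference of -1.03 was the most negative of the 32 (limma adjusted p = 0.00102). NUP210, the other large membrane protein, was called lower in both, with -0.70 and -0.34.

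POM121 and POM121C are near-identical copies of a membrane nucleoporin on chromosome 7, so reads of one may have been counted for the other. POM121 (chr7:72349936-72421980) had 3097, 1899 and 2380 normalized counts with selinexor, against 1831, 1680 and 1718 with DMSO. POM121C (chr7:75046066-75115549) had 2302, 1291 and 1696 with selinexor, against 1144, 1128 and 1116 with DMSO. Every selinexor library was above every DMSO library for both, and selinexor replicate 1 was the highest. The log2 fold changes were 0.47 (SE 0.16, limma adjusted p = 0.0391) and 0.60 (SE 0.182, limma adjusted p = 0.0243). Without selinexor replicate 1 they were 0.29 and 0.39, both still called. Both calls were lost when any DMSO replicate or selinexor replicate 3 was left out, and when no intensity trend was fitted. In the knockdown table POM121 had 1757, 1861 and 1817 with XPO1 siRNA, against 1802, 1349 and 1661 with control siRNA. POM121C had 1106, 1266 and 1192 with XPO1 siRNA, against 1233, 993 and 1130 with control siRNA. These groups overlapped, and the values of 0.19 and 0.09 were not called. That of POM121 passed without control siRNA replicate 1 (0.27, limma adjusted p = 0.00649).

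Some members share sequence or position with other genes. Of 16 listed copies of nucleoporins, such as the RGPD copies of RANBP2 and the POM121-like genes, 11 were tested with selinexor. Of these, 8 were higher and 1 lower with a median of 0.63, against 22.9% higher and 26.3% lower of all genes. With knockdown 10 were tested, of which 5 were higher and 0 lower with a median of 0.57, against 25.9% and 28.6%. The copies tested with selinexor were low, with DMSO means from 8.3 for POM121L9P to 783 for RGPD6. The lowest member, NUP37, averaged 787. Genes on the opposite strand overlap the ends of POM121 (NSUN5P2, 0.43 with selinexor and 0.54 with knockdown) and POM121C (NSUN5P1, 0.55 and 0.62), and likewise those of NUP43, NUP62, NUP88, NUP98 and NUP188. The overlap at POM121C was slight, as NSUN5P1 ends at 75046067 and POM121C starts at 75046066. Lower genes on the opposite strand, with DMSO means of 10.3 to 159, overlap the ends of GLE1, SEC13, NUP107, NUP153 and TPR. On the same strand, CHRNA10 overlaps an end of NUP98 and KRT8P39 lies within NUP107 (DMSO means of 29.1 and 28.6). The sources used here do not say if counting used strand, so reads in such overlaps are uncertain. The part of copies and overlaps in these values was not tested.

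**Figure D3:**
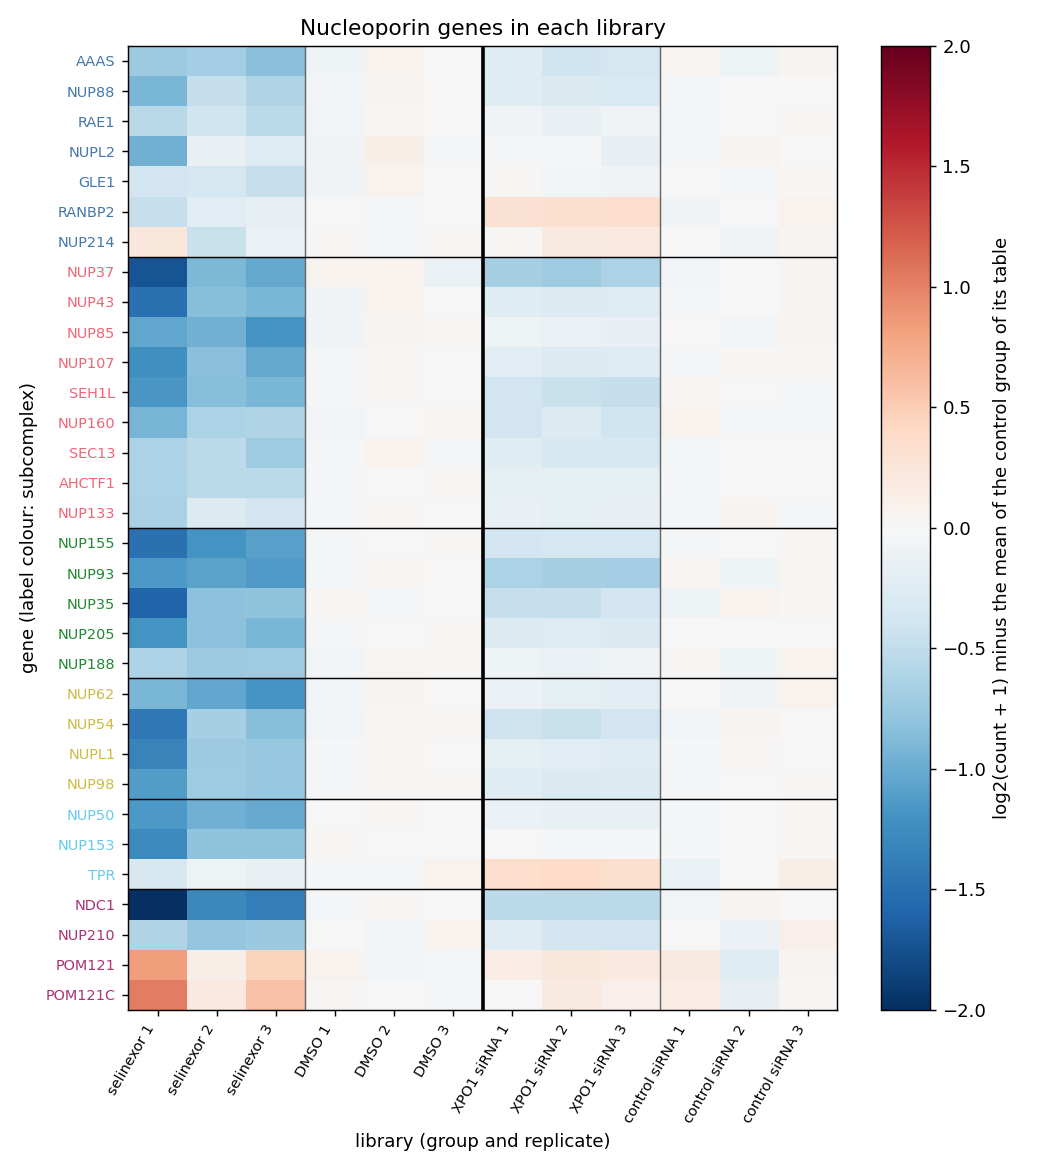
Log2(normalized count + 1) of each nucleoporin gene (rows, label colour by place in the pore) in each of the 12 libraries (columns), minus the mean of the control group of its table. The selinexor columns are blue for 29 or 30 of 32 members in each library, the XPO1 siRNA columns are paler, and RANBP2 and TPR are red in the 3 XPO1 siRNA libraries.

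**Figure D4:**
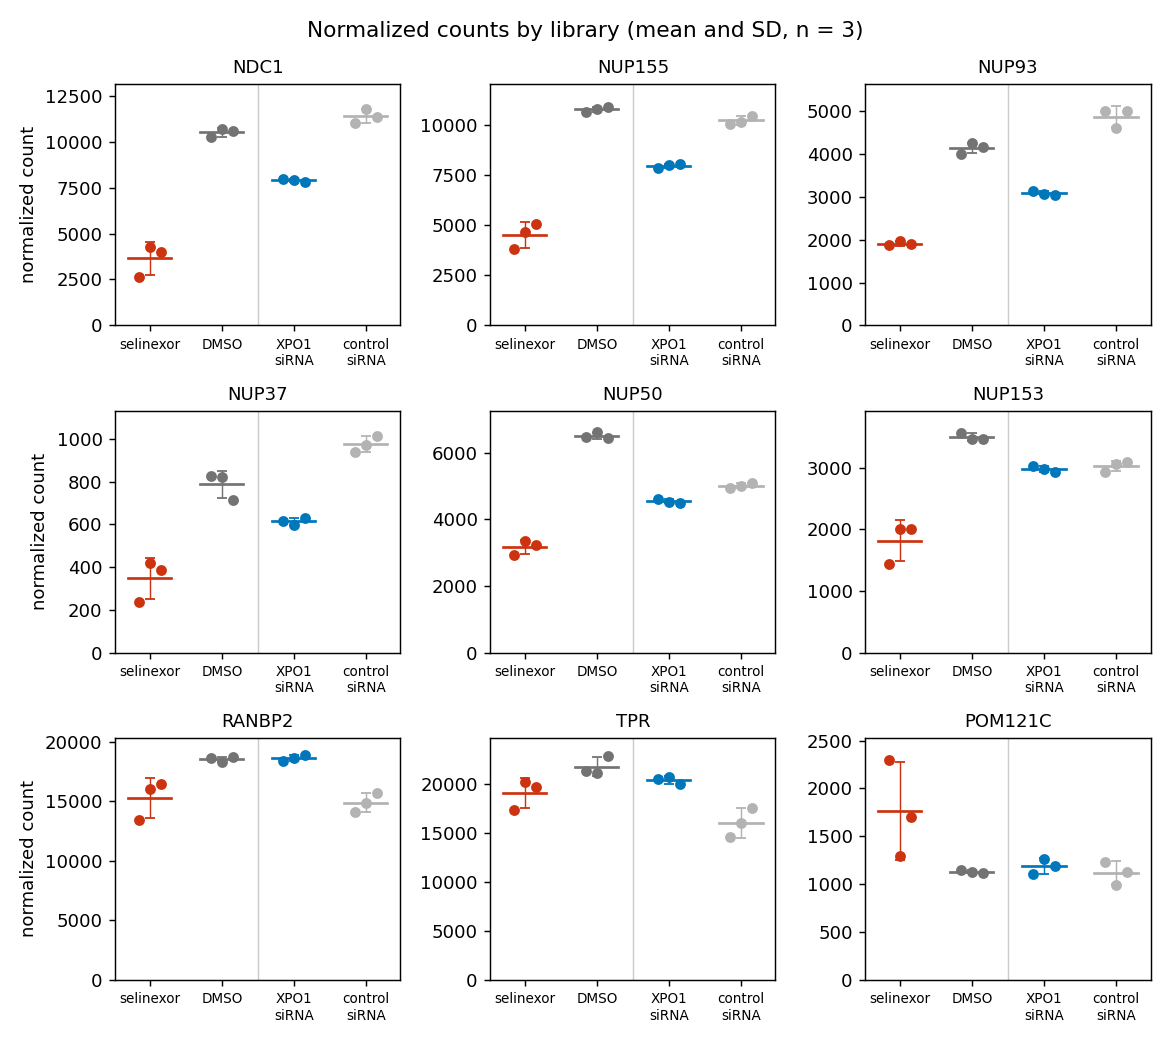
Normalized counts (y axis, from 0) of 9 nucleoporin genes in each library of the 4 groups, with lines at the mean and bars of 1 SD (n = 3). NDC1, NUP155, NUP93 and NUP37 are lower in both treated groups, NUP153 is lower with selinexor while its siRNA groups overlap, and RANBP2 and TPR are higher with XPO1 siRNA.

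**Figure D5:**
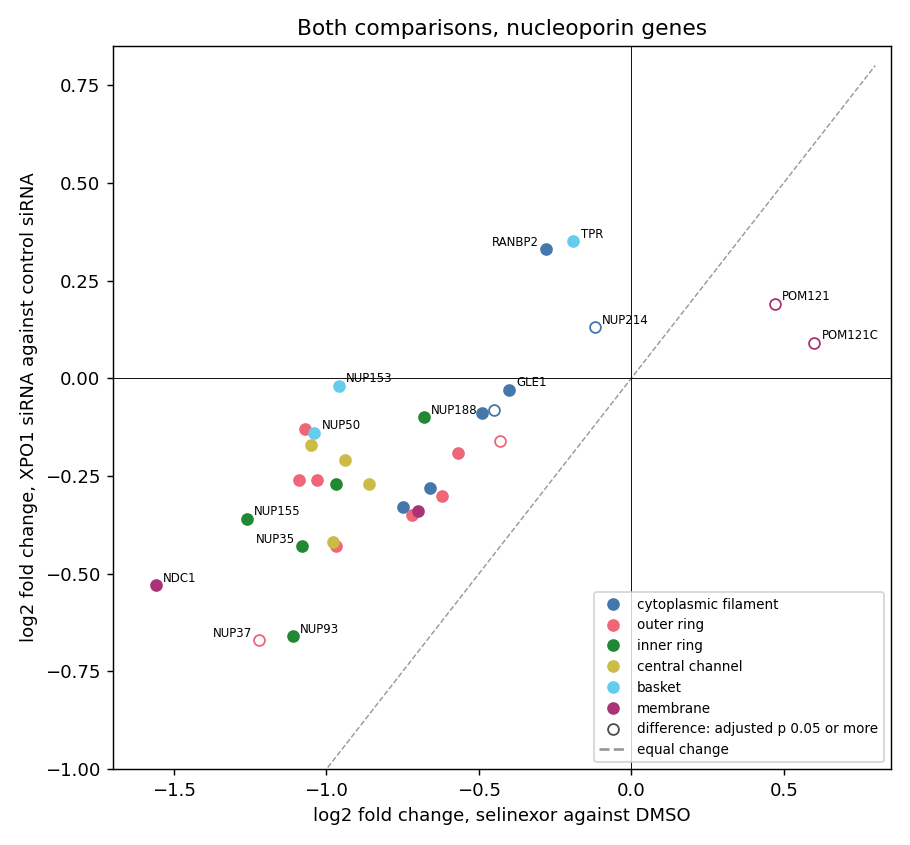
Log2 fold change with selinexor (x axis) against that with XPO1 siRNA (y axis) for the 32 nucleoporin genes, coloured by place in the pore, with a dashed line of equal change and open symbols where the difference was not called. Most members lie left of the line, with NDC1 at -1.56 and -0.53, and RANBP2 and TPR in the upper left.

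Levels between genes were compared per 1000 bases of the longest coding transcript in GENCODE 29, which may not be the form these cells make. With DMSO the highest level was that of SEC13, at 3460 normalized counts per 1000 bases, followed by TPR at 2238 and NDC1 at 2046. The lowest were POM121 at 249, NUP214 at 226 and POM121C at 194. With selinexor NDC1 stood at 710.0 per 1000 bases, against 2046 with DMSO, while TPR stood at 1962, against 2238. With control siRNA SEC13 was again the highest, at 4115, and POM121C the lowest, at 192.

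Genes of the same transport pathway were read from lists beside the members. Of 34 tested transport receptors and Ran cycle genes, 26 were lower and 1 higher with selinexor (median -0.59), and 24 were lower and 3 higher with knockdown (median -0.22, XPO1 itself among the lower). Over all genes tested, 26.3% were lower and 22.9% higher with selinexor, and 28.6% were lower and 25.9% higher with knockdown. RCC1, which loads Ran with GTP, averaged 1183 ± 108 with selinexor and 3546 ± 145 with DMSO (log2 fold change -1.59), and KPNB1, the main import receptor, 17992 ± 694 with selinexor and 36447 ± 853 with DMSO (-1.02). RANBP1, a Ran binding protein that helps GTP hydrolysis, had -1.23 with selinexor and -0.57 with knockdown. KPNA2, an import adaptor, was 20940 ± 500.0 with XPO1 siRNA and 32638 ± 373 with control siRNA (-0.64).

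Of 25 tested messenger RNA export genes, 15 were lower and 1 higher with selinexor (median -0.37), and 12 were lower and 6 higher with knockdown (median -0.12). The share higher with knockdown was near the 25.9% of all genes, while 28.6% of all genes were lower there, and 26.3% were lower with selinexor. ALYREF, an adaptor that brings messenger RNA to its export receptor, was lower in both, with -1.07 and -0.48. THOC1 and THOC5, subunits of the THO complex, rose by 0.46 and 0.42 with knockdown, and with selinexor THOC1 was lower (-0.27) and THOC5 higher (0.33). NXT1, a partner of the export receptor, had -0.85 and DDX19A, a helicase at the pore, -0.72 with selinexor.

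Of 21 lamina and inner membrane genes, 10 were lower and 2 higher with selinexor (median -0.27), and 8 were lower and 6 higher with knockdown (median 0.02). Over all genes 26.3% were lower and 22.9% higher with selinexor, and the knockdown counts were near the 28.6% lower and 25.9% higher of all genes. LMNB1, which encodes lamin B1, averaged 3502 ± 333 with selinexor and 11094 ± 284 with DMSO (log2 fold change -1.67), and had -0.37 with knockdown. TMPO, an inner membrane protein that binds lamins, had -1.65 with selinexor, and NRM, nurim of the inner membrane, -1.40. With knockdown DHCR7, a sterol reductase, had -0.82 and LBR, the lamin B receptor, -0.46. LMNA, which encodes lamins A and C, was the largest rise of the list with selinexor, at 2009 ± 597 with selinexor and 712 ± 33.3 with DMSO (1.46).

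Genes of cell proliferation were lower in the same groups. All 18 listed proliferation genes were lower with selinexor (median -1.80), and 17 of 18 were lower with knockdown (median -0.50), against 26.3% and 28.6% of all genes. RRM2, a subunit of ribonucleotide reductase, averaged 1521 ± 171 with selinexor and 11250 ± 315 with DMSO (log2 fold change -2.89), and MCM4 and AURKB, of DNA replication and mitosis, had -2.42 and -2.32. With knockdown MCM6, of DNA replication, had -0.87, CCNA2, a cyclin, -0.80 and AURKB -0.87. The part of proliferation in the nucleoporin values was not tested. These lists were chosen with earlier results of the data known, so their counts are descriptions.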

How the data were processed

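Per the labels' protocols, libraries of total RNA from IMR5 cells were made with a kit that keeps strand. Groups and replicate numbers are those of the titles. STAR 2.7.3a, Partek, DESeq2 and the hg19 build are named in the submitters' processing notes, which is all that is known here of alignment and counting. What the authors deposited is a signal, normalized counts with a size factor for each library, set separately in each table. No test compares levels across the tables. Further columns of per-sample values in the knockdown table, 3 in number, are named for an XPO1 siRNA of another number, matched no sample and were not used. The catalogue number that the labels give for the control siRNA was not checked against a catalogue, so what that siRNA targets rests on its label. There, 25 gene symbols turned into dates were restored from coordinates.

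Genes with a mean of 10 or more entered limma 3.58.1 (R 4.3.3; moderated by eBayes, with its trend on intensity) after log2(value + 1), two-sided and Benjamini-Hochberg adjusted over the whole table, with a threshold of 0.05. The difference of effects was fitted over 12 libraries with 4 group means. Each fit took the spread of a gene to be the same in all of its groups. This did not hold for some members: the SD of NDC1 was 877 with selinexor, 231 with DMSO and 66.5 with XPO1 siRNA. For others, such as NUP93, the selinexor SD was the smaller (56.5, against 125 with DMSO). Where the selinexor libraries spread more, the p-values may be too small. Fold changes on this scale understate the change of low genes. Depth was estimated from the steps of low values: of values from 0.3 to 60, only 62.0% to 66.8% lay within 0.02 of a whole multiple of the step, so whole reads were not recovered and no count model was fitted. No replicate pair held identical values. The limma fits, but not the depth estimate, were also run on simulated counts. That simulation gave all genes and both groups of a table the same dispersion, unlike these data, so no result here rests on it. Python 3.11.15 with numpy 2.4.6, pandas 2.3.3 and, for figures, matplotlib 3.10.9 did the rest.

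The members and lists were chosen with earlier results of these data known. Named with values in every sample were the 6 members with the largest changes in each comparison, those called against the majority, up to 8 called in the difference of effects and the first by p of each group of the pore, with up to 3 genes by p from each list. NUPL2 and LMNA were added after their values were seen. Alternatives were pseudocounts of 0.5 and 5, equal totals, no filter or one of a mean of 50, a 30% trimmed mean, a replicate block, no intensity trend, a fit after taking out the GC trend of each library (GENCODE 29, for 82.3% and 83.2% of genes and all 32 members) and each replicate left out.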

Additional observations from a re-analysis of the deposited data

Results flagged for a closer look

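For 26 members the effect of selinexor against DMSO and that of XPO1 siRNA against control siRNA differed in a test of the difference itself (limma over 12 libraries, adjusted p under 0.05). All were more negative with selinexor, as were 20.2% of all genes, while 11.6% of all genes were more positive. The difference, on the log2 scale, was -1.03 for NDC1, -0.94 for NUP85 and NUP153, -0.90 for NUP155 and NUP50, -0.88 for NUP62 and -0.82 for NUP43. It was -0.77 for NUP107, -0.73 for NUPL1, -0.70 for NUP205, -0.64 for NUP35, -0.61 for RANBP2 and -0.60 for NUP98. It was -0.58 for NUP188, -0.57 for NUP54, -0.55 for TPR, -0.54 for SEH1L, -0.46 for NUP93, -0.42 for AAAS and -0.40 for RAE1. It was -0.38 for NUP88 and AHCTF1, -0.37 for GLE1 and NUP160, -0.36 for NUP210 and -0.32 for SEC13. Without selinexor replicate 1 the difference was -0.38 for NUP35 and -0.34 for NUP54, and both passed. The difference calls of NUP35 and NUP54 were each lost in 10 of the alternative settings, however. That of NUP88 was lost in 9 and that of NUP160 in 3. RANBP2 was called in opposite directions, but its selinexor call was lost in 7 of the alternative settings. GLE1, RAE1 and NUP153 (selinexor) and TPR (knockdown) were called in a single comparison. The comparisons differ in agent, delivery and time, which cannot be told apart here.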

How the results depend on the processing

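The counts of members lower kept within 1.5 times of the reported ones under every alternative run: 26 to 29 of 32 with selinexor, 18 to 24 with knockdown and 22 to 29 for the difference of effects. The 2 members higher with selinexor were 0 with no intensity trend and 0 to 2 with a replicate left out. Those higher in the difference of effects were 0 to 2 with a replicate left out, and the 2 came without selinexor replicate 2 (POM121 at 0.45 and POM121C at 0.72). The median with knockdown was -0.14 with equal totals. Over all genes, same-numbered deviations correlated at 0.00884, 0.119 and -0.0417 with selinexor and at -0.0311, -0.02 and -0.104 with knockdown. Those with different numbers correlated at -0.0929 to 0.0914 and at -0.05 to 0.0894. Among the members, however, replicate 1 was most often the lowest of its group with selinexor (22) and DMSO (21). Replicate 2 was most often the highest (20 and 19). With 3 libraries in each group these values cannot settle if the replicate numbers pair the samples. A replicate block gave 27 members lower and 2 higher with selinexor, RANBP2 having left the lower ones (limma adjusted p = 0.0527) and NUPL2 (0.037) having joined them, 23 and 4 with knockdown, and 26 and 0 for the difference. Of single members' values under the alternatives, 1544 kept their side of the threshold, 70 lost a call, 18 gained one and 0 reversed. Difference calls of NUP35, NUP54 and NUP88 were lost in most fits without 1 library, and NUP160's in 3 of them. Without selinexor replicate 1 the differences of NUP214 (-0.43), NUP133 (-0.17) and NUP37 (-0.30) also passed. The cause of these shifts was not tested. Estimated depth was 26.8 to 55.8 M reads per library, and the 3 libraries of each group limit the precision.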
